A study of Mus musculus with 24 samples.

Results

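The genes described here encode the nuclear subunits of respiratory complexes II, III, IV and V, with cytochrome c as the carrier between complexes III and IV. They were chosen by name, as a fixed list of 44 genes among the 55487 Ensembl mouse genes in the tables. Symbols came from GENCODE, and the complexes have 4, 9, 14 and 16 members, besides Cycs. All 44 passed the filter on low values (0.5 TPM or more in 8 or more libraries), and it left 14690 genes for testing. RNA from the gastrocnemius, a calf muscle, was sequenced in 24 male C57BL/6J mice, 1 library a mouse. The labels give an age of 12 weeks, and the design text places the start of the experiment at 10 weeks. In the first group of 8, called uncasted, no casts were applied and the mice were injected with water. In the second group of 8, called casted, both hindlimbs were in casts for 8 days and water was injected. In the third group of 8, called casted with MOTS-c, mice were casted likewise and received MOTS-c, a peptide encoded within the mitochondrial genome. The dose was 15 mg/kg/day over the 8 days, split into 2 intraperitoneal injections daily.

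Complex II (succinate dehydrogenase) links the citric acid cycle to ubiquinone, complex III passes electrons from ubiquinol to cytochrome c, and complex IV (cytochrome c oxidase, COX) hands them to oxygen. Complexes III and IV pump protons, and complex V (ATP synthase) makes ATP from the proton gradient. Complex II is wholly nuclear-encoded, whereas the core of complexes III, IV and V also holds subunits from the mitochondrial genome. In heart and skeletal muscle, several COX subunits exist as a muscle isoform beside a ubiquitous one, and fibres rich in mitochondria tend to hold more respiratory chain transcripts.

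Values are TPM, which correct for transcript length and are shares of a fixed total, so sequencing depth is unknown. Scaled TPM are TPM brought to a common level across libraries by trimmed mean log ratios, and log2 changes are on log2(scaled TPM + 1). The scale matters here. From uncasted to casted muscle the median gene lay 0.39 (log2) higher on the deposited TPM and at 0.02 after scaling. A fall on scaled TPM is therefore a fall against the middle of all genes, and values on both scales are given. The libraries held 19832 to 21755 genes above 0. Transcripts of the mitochondrial genome took 20.5 to 22.3% of the TPM in the uncasted, 13.9 to 17.1% in the casted and 15.3 to 20.3% in the MOTS-c libraries, and the 44 members 1.76 to 1.95%, 1.44 to 1.76% and 1.55 to 1.73%. The tissue label was borne out by 10 markers of skeletal muscle fibres, with summed levels of 164553 to 194997, 77252 to 119463 and 80954 to 146308 scaled TPM in the same order. With casting 9 of these 10 markers fell and 1 rose (7 and 1 in deposited TPM). All 9 markers of slow and oxidative fibres fell (5 in deposited TPM), in sum from 4170 to 4591 down to 2368 to 3511 scaled TPM. Of 8 macrophage markers 6 rose (8 in deposited TPM), from a sum of 50.8 to 69.5 to one of 72.4 to 165. All 5 endothelial markers fell (2 in deposited TPM, where 1 rose), in sum from 78.2 to 112 down to 55.4 to 83.2, and 4 of 6 fibroblast markers fell (3 in deposited TPM, where 2 rose), in sum from 545 to 956 down to 290 to 803. Of 5 adipocyte markers 4 were tested, of which 1 rose and 1, Fabp4, fell (3 rose and 0 fell in deposited TPM). Their median change was 0.20, although the sum of all 5 went from 212 to 300 down to 148 to 249. Of 5 heart muscle markers, summed at 9.18 to 24.9 and 17.6 to 53.5, 2 were tested. Myl4 rose by 0.96 (limma adjusted p = 0.000133), Myh6 was at -0.80 (limma adjusted p = 0.101), Myl7 and Nppa had a median of 0 in each group and Tnni3 one under 0.5 TPM. The part of fibre and other cell type markers in the results on the subunits was not tested, and in bulk tissue fewer cells of a type and less RNA per cell cannot be told apart.

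The first comparison, casted against uncasted, addresses what 8 days of casting did to these transcripts. In scaled TPM, 42 of the 44 members fell and 0 rose (limma, adjusted p under 0.05 over all genes), where 27.0% of all genes tested fell and 29.4% rose. All 42 members with an unadjusted p under 0.05 were lower. The median change over the members was -0.63, against 0.02 over all genes. The exceptions were Cox7a2l and Cox8a, at -0.08 and 0.07. In scaled TPM groups did not overlap at all for 36 members, each casted library lying below each uncasted one, as for 10.6% of all genes. Separation depended on the scale. In deposited TPM 13 members were separate and lower and 2 separate and higher, beside 331 and 5247 of the 14690 genes. On deposited TPM 22 members fell and the same 22 had fallen after scaling, while 7.43% of all genes fell there and 62.2% rose. On that scale Cox7a2l and Cox8a rose, and the other 20 did not pass the test, with 13 below and 7 above 0. The count of falls after scaling was 42 without casted replicates 1 to 4 (26.7% of all genes fell) and 39 without casted replicates 5 to 8 (19.5% of all genes), which stand apart from each other as described under MOTS-c.

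**Figure D1:**
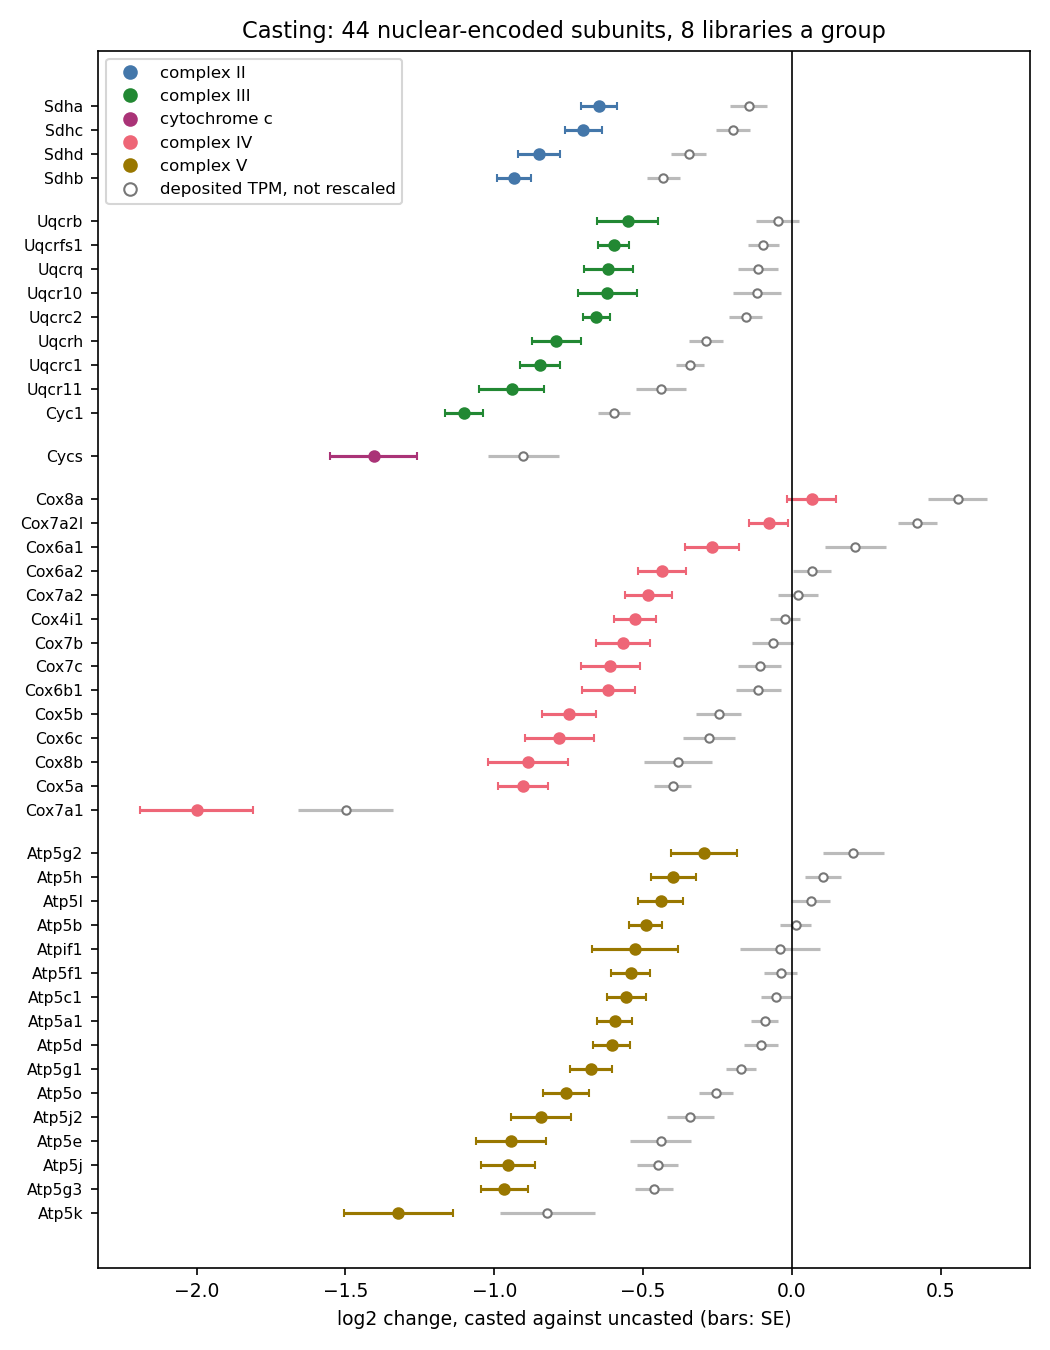
The log2 change from uncasted to casted muscle is plotted for each of the 44 members, grouped by complex, with filled points for scaled TPM, open grey points for deposited TPM and bars for the SE (8 libraries a group). On scaled TPM 43 of 44 points lie below 0, with Cox8a at 0.07, and on deposited TPM 35 lie below 0 and 9 above it.

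The 4 subunits of complex II fell on both scales, with a median of -0.77 in scaled and -0.27 in deposited TPM. Sdhb, the iron-sulfur subunit (chromosome 4, 140961203 to 140979193, GRCm38), fell furthest of the 4. Its scaled TPM ranged from 343 to 414 (median 369.9) in the uncasted, from 166 to 210.2 (median 200.0) in the casted and from 184 to 225 (median 190.5) in the MOTS-c libraries. Each casted library lay below each uncasted one, and the change was -0.93 ± 0.06 (SE, limma adjusted p = 8.37e-12). Sdha, the flavoprotein that oxidises succinate, changed least of the 4 with all casted libraries, at -0.65 ± 0.06 (limma adjusted p = 4.35e-09), from a median of 466 to 291 scaled TPM. The membrane anchors Sdhc and Sdhd, which bind ubiquinone, went from medians of 305 to 190.1 and from 219 to 120.4.

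All 9 subunits of complex III fell in scaled TPM, with a median of -0.66. In deposited TPM their median was -0.15, with 5 of the 9 past the test and all below 0. Cyc1, the heme-bearing cytochrome c1 (chromosome 15, 76343523 to 76346260), fell furthest with all casted libraries, and Uqcr11 did without casted replicates 1 to 4. Cyc1 ranged from 374 to 439 (median 406) in the uncasted, from 162 to 208 (median 189) in the casted and from 168 to 241 (median 190.0) in the MOTS-c libraries. The casted and uncasted groups were separate, and the change was -1.10 ± 0.06 (limma adjusted p = 3.91e-12). At the other end Uqcrb, a small ubiquinone-binding subunit, changed by -0.55 ± 0.10 (limma adjusted p = 6.18e-05), and its casted libraries (349 to 569) overlapped the uncasted ones (550.0 to 756). Without casted replicates 5 to 8 its change was -0.35. The core proteins Uqcrc1 and Uqcrc2 went from medians of 449.5 to 243 and from 350.1 to 224, and the Rieske iron-sulfur protein Uqcrfs1 from 346 to 231. Among the small subunits, medians went from 457 to 306 for Uqcrq, from 649 to 391 for Uqcrh, from 391 to 268 for Uqcr10 and from 359 to 198 for Uqcr11.

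Cycs, the somatic cytochrome c that carries electrons to complex IV (chromosome 6, 50562563 to 50566538), fell by more than any member but Cox7a1 with all casted libraries. Without casted replicates 1 to 4 Atp5k fell further (-1.89 against -1.81), and without replicates 5 to 8 Cyc1 did (-1.03 against -1.0). Uncasted libraries ranged from 388 to 569 (median 446) and casted ones from 112 to 252 (median 178). The groups were separate, with a change of -1.40 ± 0.15 (limma adjusted p = 2.24e-08) in scaled and -0.90 in deposited TPM. Cycs has 10 annotated near-copies, transcripts at 90% identity or more, which held 50.7% of their joint TPM, most of it in Gm10053. Summed with them, it ranged from 758 to 1136 in the uncasted and from 267 to 506 scaled TPM in the casted libraries, which remained separate. Its promoter is shown because nuclear respiratory factor 1 (NRF1) is known to act on many genes of this kind. The 250 bases before the RefSeq start (chr6:50566570-50566819, minus strand, GRCm38.p6) are printed 5′ to 3′, with matches to the NRF1 core and the YY1 site in capitals.
Cycs: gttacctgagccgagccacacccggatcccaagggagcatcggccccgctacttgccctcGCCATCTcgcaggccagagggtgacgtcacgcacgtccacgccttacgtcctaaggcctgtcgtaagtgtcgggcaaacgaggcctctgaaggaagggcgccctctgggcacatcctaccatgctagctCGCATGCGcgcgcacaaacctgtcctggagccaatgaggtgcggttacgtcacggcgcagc

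The NRF1 core (GCATGCG, either strand) was at 60 to 54 bases before the start on the printed strand and at 61 to 55 on the opposite one, so that both matches overlap. The YY1 site (ANATGGC) was at 190 to 184, on the opposite strand. RefSeq windows matched 35 members, 1 of them through a synonym, in 38 windows. No window was matched for Uqcrq, Atp5a1, Cox6c, Uqcrc2, Cox4i1, Sdhc, Cyc1, Cox6a2 and Uqcrb. The NRF1 core was in 7 of the 38 windows (18.4%), against 3.02% of all 32851 windows of this length, namely in those of Cycs, Sdhb, Cox6a1, Atp5g2, Atp5j, Atp5k and Atp5l. The ETS site bound by GABP (CCGGAAG) was in 9 member windows, or 23.7%, against 6.91% of all. The site of estrogen-related receptors (AAGGTCA) was in 3 member windows, or 7.89%, against 4.08%. For the GC box of SP1 (GGGCGG) the shares were 26.3% of member windows and 32.7% of all, and for the YY1 site 10.5% and 11.5%. The E-box of myogenic factors (CAGCTG) was in 7.89% of member windows and 13.0% of all, and part of the MEF2 site (CTAAAAA) in 2.63% and 3.09%. Beyond the start, 37 of the 38 windows touched an annotated exon on their strand. The exception was Atpif1, whose window was counted for estrogen-related receptors, SP1, YY1 and the E-box. Motif matches describe letters in a window, not bound sites. The members carrying an NRF1 core changed with casting by between -1.40 (Cycs) and -0.27 (Cox6a1).

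Of the 14 complex IV subunits 12 fell in scaled TPM, with a median of -0.59. In deposited TPM 5 fell, 2 rose and the median was -0.09. This was the complex with the widest range, from -2.0 for Cox7a1 to 0.07 for Cox8a. Cox4i1, the largest nuclear-encoded subunit, went from a median of 1066 to 743 scaled TPM and was near 0 (-0.02) in deposited TPM. The matrix-facing Cox5a and Cox5b went from 655 to 369.5 and from 697 to 440.0, below 0 on both scales. Cox6b1, on the cytochrome c side, went from 725 to 487, Cox6c from 678 to 416, Cox7b from 615 to 444 and Cox7c from 438 to 289.9. For Cox7c, 63.2% of the joint TPM lay in near-copies, chiefly Gm12338. Summed with them it went from 1037 to 1384 in the uncasted to 506 to 1027 in the casted libraries, now without overlap. For Cox6c 19.0% lay in near-copies, nearly all in Cox6c2. Without casted replicates 5 to 8 the change of Cox6c was -0.50 in place of -0.78, and that of Cox7c -0.40 in place of -0.61. Cox7a2l ranged from 120.3 to 152 (median 132) in the uncasted and from 110.4 to 146 (median 131) in the casted libraries. Those ranges overlapped, with a change of -0.08 ± 0.07 (limma adjusted p = 0.319) in scaled and 0.42 in deposited TPM.

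Muscle and ubiquitous isoforms were compared as the ratio of both genes within a library, which does not depend on scaling between libraries. The muscle isoform was the higher by far for subunits 6a and 8, whereas Cox7a1 and Cox7a2 were near parity in uncasted muscle. With casting the ratio moved for subunits 7a and 8. The Cox7a1 to Cox7a2 ratio ranged from 0.953 to 1.24 (median 1.10) in the uncasted, from 0.260 to 0.552 (median 0.381) in the casted and from 0.360 to 0.753 (median 0.461) in the MOTS-c libraries. Every casted library lay below every uncasted one. The mean log2 ratio went from 0.14 ± 0.13 (SD, n = 8) to -1.39 ± 0.43 (SD, n = 8), a difference of -1.53 (exact permutation test over 12870 splits, two-sided, p = 0.0001554, the smallest possible, adjusted p = 0.0004662 over 9 tests). The Cox8b to Cox8a ratio ranged from 10.4 to 12.7 (median 11.7), from 4.14 to 9.29 (median 6.21) and from 5.20 to 11.1 (median 7.07) in the same order. Casted and uncasted libraries were again separate, with a difference of -0.96 on the log2 scale (exact permutation p = 0.0001554, adjusted p = 0.0004662). The Cox6a2 to Cox6a1 ratio ranged from 22.4 to 34.1 (median 30.0) in the uncasted and from 22.2 to 31.2 (median 27.0) in the casted libraries. These ranges overlapped almost wholly, with a difference of -0.16 (exact permutation p = 0.136, adjusted p = 0.204). Of 16 fits that left out a single library, 1 changed this call, that without uncasted replicate 7, which had the lowest ratio of its group. There the difference was -0.21 (exact permutation, adjusted p = 0.0487). That fit is named because its call differed, so its p-value is descriptive. Whether the shift differed between the 3 pairs was not tested.

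**Figure D2:**
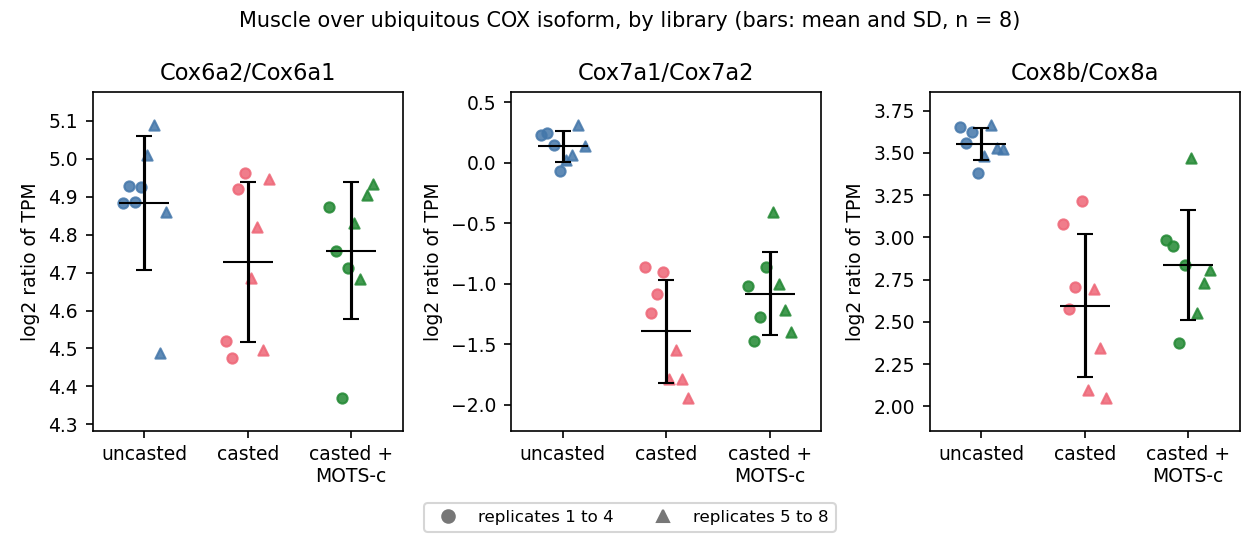
The log2 ratio of the muscle to the ubiquitous COX isoform is plotted for each library by group, with circles for replicates 1 to 4, triangles for replicates 5 to 8 and bars for the mean and SD (n = 8). For Cox7a1 to Cox7a2 and for Cox8b to Cox8a all casted points lie below all uncasted ones, while the Cox6a2 to Cox6a1 points overlap.

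The isoform genes themselves were compared in scaled and deposited TPM. Cox7a1, the heart and skeletal muscle isoform of subunit 7a (chromosome 7, 30184144 to 30186078), ranged from 274 to 384 (median 321) in the uncasted and from 48.6 to 135 (median 80.4) in the casted libraries. Its change of -2.0 ± 0.19 (limma adjusted p = 5.00e-09) was the largest of all members, and it was -1.50 in deposited TPM. Cox7a2, its ubiquitous partner (chromosome 9, 79755361 to 79759878), went from a median of 285 to 220.4, a change of -0.48 ± 0.08 (limma adjusted p = 1.42e-05) in scaled and 0.02 in deposited TPM. Cox8b, the muscle isoform of subunit 8 (chromosome 7, 140898945 to 140900446), ranged from 416 to 524 (median 449.8) and from 168 to 381 (median 249). That was a change of -0.89 ± 0.13 (limma adjusted p = 4.57e-06), and -0.38 in deposited TPM. Without casted replicates 5 to 8 it was -0.52. The ubiquitous Cox8a (chromosome 19, 7215153 to 7217616) ranged from 36.1 to 45.5 (median 38.5) and from 31.3 to 46.7 (median 40.8). Its groups overlapped, with a change of 0.07 ± 0.08 (limma adjusted p = 0.513) in scaled and a rise of 0.56 in deposited TPM. Cox6a2 (chromosome 7, 128205435 to 128206387) went from a median of 676 to 481 (-0.44 ± 0.08, limma adjusted p = 6.78e-05, and 0.07 in deposited TPM). Cox6a1 (chromosome 5, 115345642 to 115348981), the lowest member in every group, went from a median of 22.0 to 19.3, a change of -0.27 ± 0.09 (limma adjusted p = 0.0148). It was at 0.21 in deposited TPM, and did not pass the test without casted replicates 5 to 8 (-0.15).

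Promoter stretches of the pairs whose ratio moved are set side by side because the isoforms of a pair moved unequally. Each runs 5′ to 3′ on the gene's strand within the 250 bases before the RefSeq start, leaving out bases in an annotated exon (RefSeq, GRCm38.p6), with motif matches in capitals. They lie at chr7:30183921-30184143, plus strand (Cox7a1), at chr9:79759879-79760103, minus strand (Cox7a2), at chr7:140900447-140900696, minus strand (Cox8b) and at chr19:7217617-7217866, minus strand (Cox8a).
Cox7a1: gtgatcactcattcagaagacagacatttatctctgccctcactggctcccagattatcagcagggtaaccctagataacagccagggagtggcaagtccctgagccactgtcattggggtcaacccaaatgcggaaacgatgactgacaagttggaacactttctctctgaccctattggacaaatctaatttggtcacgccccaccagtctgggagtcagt
Cox7a2: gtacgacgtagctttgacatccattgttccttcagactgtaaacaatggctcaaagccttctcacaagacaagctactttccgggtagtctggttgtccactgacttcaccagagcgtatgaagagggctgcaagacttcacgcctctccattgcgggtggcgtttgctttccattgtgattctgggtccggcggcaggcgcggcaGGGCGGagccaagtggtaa
Cox8b: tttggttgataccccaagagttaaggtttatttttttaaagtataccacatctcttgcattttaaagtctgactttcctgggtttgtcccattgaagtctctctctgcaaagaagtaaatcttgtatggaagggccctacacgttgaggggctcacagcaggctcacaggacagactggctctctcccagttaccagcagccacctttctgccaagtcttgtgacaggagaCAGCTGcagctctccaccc
Cox8a: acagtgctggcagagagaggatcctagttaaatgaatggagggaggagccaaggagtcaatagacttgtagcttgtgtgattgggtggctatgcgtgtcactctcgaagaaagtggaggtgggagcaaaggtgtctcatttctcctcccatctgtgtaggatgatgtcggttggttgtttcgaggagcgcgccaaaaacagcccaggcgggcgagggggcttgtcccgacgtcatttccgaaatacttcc
Of the 7 motifs, none was in the Cox7a1 and Cox8a stretches. That of Cox7a2 held 1 GC box, 44 to 39 bases before the start, and that of Cox8b 1 myogenic E-box, at 19 to 14. No window was matched for Cox6a2.

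All 16 members of complex V fell in scaled TPM, with a median of -0.60. In deposited TPM 7 of the 16 fell, the median was -0.10, and Atp5b, Atp5g2, Atp5h and Atp5l lay above 0. Of the F1 head, which holds the catalytic sites, Atp5b was the most abundant of all 44 members in every group, with medians of 1981 in the uncasted and 1417 in the casted libraries and a change of -0.49. Atp5a1, its partner in the hexamer, went from 1167 to 757, and the rotor stalk genes Atp5c1, Atp5d and Atp5e from 808 to 569, from 272 to 183 and from 503 to 273. The peripheral stalk that holds the head still went from 645 to 454 (Atp5f1), from 611 to 467 (Atp5h), from 709 to 391 (Atp5j) and from 737 to 440.0 (Atp5o). Atp5k, the membrane subunit e that takes part in pairing ATP synthases (chromosome 5, 108433244 to 108434448), fell furthest with all casted libraries. It ranged from 246 to 318 (median 287) in the uncasted and from 63.0 to 193 (median 126) in the casted libraries, with a change of -1.32 ± 0.18 (limma adjusted p = 1.32e-06). Its casted libraries fell into separate sets, 155 to 193 in replicates 1 to 4 and 63.0 to 97.8 in replicates 5 to 8, all below the uncasted ones. Without replicates 5 to 8 the change of Atp5k was -0.75, and Atp5g3 (-0.80) then fell furthest of complex V. The membrane subunits f and g, Atp5j2 and Atp5l, went from 501 to 303 and from 501 to 385. In Atp5l 61.2% of the joint TPM lay in near-copies, chiefly Gm10221. Summed with them it ranged from 1158 to 1671 in the uncasted and from 727 to 1199 in the casted libraries, which overlapped, whereas Atp5l alone did not. Atpif1, which inhibits the enzyme when it runs backwards, went from a median of 32.5 to 22.3, with overlapping groups and a change of -0.53 ± 0.15 (limma adjusted p = 0.00338). It did not pass the test without casted replicates 5 to 8 (-0.32).

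Subunit c, which forms the membrane ring, is encoded by 3 genes whose mature proteins are alike. Atp5g3 (chromosome 2, 73908447 to 73911326) went from a median of 674 to 351 scaled TPM, a change of -0.97 ± 0.08 (limma adjusted p = 6.30e-10). Atp5g1 (chromosome 11, 96068852 to 96075670) went from 548 to 335, a change of -0.67 ± 0.07 (limma adjusted p = 2.24e-08). Atp5g2 (chromosome 15, 102662864 to 102672352) changed least of complex V with all casted libraries. Its uncasted libraries ranged from 141 to 193 (median 164) and its casted ones from 92.9 to 190.1 (median 135), a change of -0.29 ± 0.11 (limma adjusted p = 0.0278) that was 0.21 in deposited TPM. The call depends on single libraries. It was lost without uncasted replicate 3 (-0.26), casted replicate 5 (-0.25), casted replicate 6 (-0.27) or casted replicate 8 (-0.22), with limma adjusted p between 0.0535 and 0.0734, and without casted replicates 5 to 8 together (-0.05). Without casted replicates 1 to 4 it was -0.54. Near-copies, chiefly Gm10175, held 43.2% of the joint TPM of Atp5g2. Summed with them it ranged from 242 to 293 (median 273) in the uncasted and from 243 to 295 (median 272) in the casted libraries. These ranges overlapped almost wholly. For Atp5g1 near-copies held 12.3% of the joint TPM. Summed with them it ranged from 565 to 742 in the uncasted and from 343 to 473 in the casted libraries, without overlap. Atp5g3 had 0 near-copies, and its own groups did not overlap. Shares within a library were taken of the 3 genes alone, leaving out near-copies. The share of Atp5g3 in their summed TPM was 47.5 to 48.9% in the uncasted and 38.8 to 44.9% in the casted libraries, without overlap. The share of Atp5g2 was 10.4 to 13.4% and 12.8 to 20.8%, and that of Atp5g1 38.6 to 42.1% and 39.5 to 45.4%, both with overlap.

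**Figure D3:**
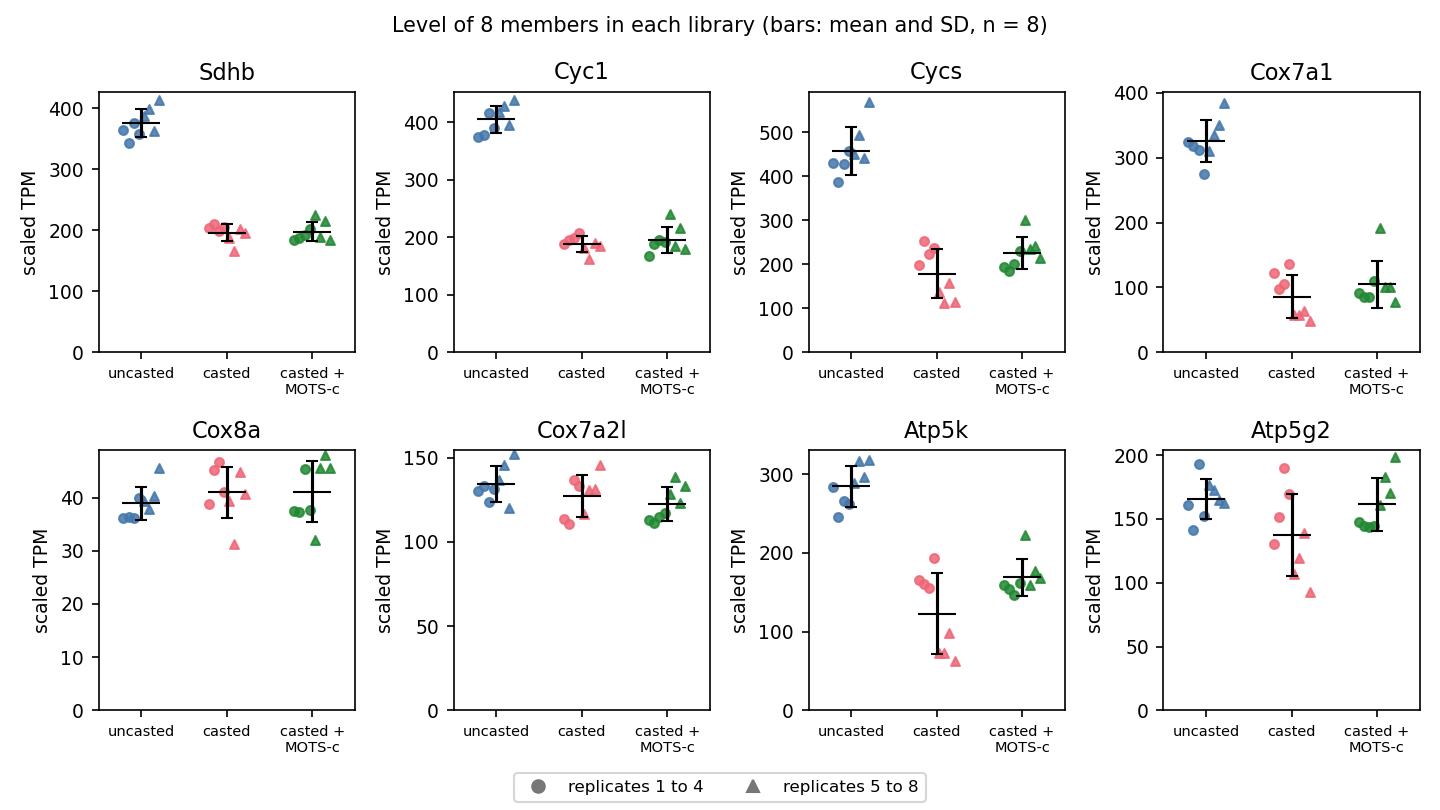
Scaled TPM of 8 members in each library are plotted by group, with circles for replicates 1 to 4, triangles for replicates 5 to 8 and bars for the mean and SD (n = 8). Sdhb, Cyc1, Cycs, Cox7a1 and Atp5k are lower in every casted than in every uncasted library, Cox8a, Cox7a2l and Atp5g2 overlap, and the casted triangles of Cycs, Cox7a1 and Atp5k lie below the casted circles.

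Other genes of the pathway were counted from lists of their own. Of 36 nuclear subunits of complex I, 35 fell after scaling, with a median of -0.64. In deposited TPM 19 of them fell and 4 rose. The exception after scaling was Ndufa7, and the lowest was Ndufc1 at -1.13. All 6 mitochondrially encoded subunits of complexes III to V fell on both scales, from -0.71 for mt-Co2 to -1.46 for mt-Atp8 in scaled TPM. Of 7 further nuclear subunits of complexes IV and V, 4 were tested and fell (2 of them in deposited TPM), from -0.35 for Ndufa4 to -0.77 for Cox4i2, while Cox6b2, Cox7b2 and Cox8c did not pass the filter on low values.

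Assembly factors, which build the complexes without staying in them, were mixed. Of 39 factors 22 fell and 9 rose in scaled TPM, where 27.0% of all genes fell and 29.4% rose. In deposited TPM 3 fell and 16 rose, where 7.43% of all genes fell and 62.2% rose. For complex II 3 of 4 fell (0 in deposited TPM, where 2 rose), to -0.46 for Sdhaf4, and Sdhaf1, which helps to insert iron-sulfur clusters, rose by 0.39 ± 0.09 (limma adjusted p = 0.000502). For complex III 5 of 7 fell and 0 rose (1 and 2 in deposited TPM), with values from -0.11 for Ttc19, which did not pass, to -0.82 for Lyrm7, with 5 at an unadjusted p under 0.05. For complex V 4 of 5 fell (0 in deposited TPM, where 1 rose), from -0.14 for Atpaf2, which did not pass the test, to -0.59 for Atpaf1. Complex IV factors went both ways, 10 of 23 lower and 8 higher (2 and 11 in deposited TPM). Taco1, which activates translation of the mitochondrial Co1 transcript, ranged from 27.1 to 36.1 scaled TPM in the uncasted and from 12.1 to 15.9 in the casted libraries, a change of -1.14 ± 0.09 (limma adjusted p = 2.44e-10). Cox15, which makes heme a for the oxidase, ranged from 12.9 to 18.7 and from 19.8 to 42.2, a rise of 0.66 ± 0.13 (limma adjusted p = 0.000158). Both pairs of groups were separate. Taco1 fell and Cox15 rose in deposited TPM as well.

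Of 13 regulators known to act on respiratory chain genes, 6 fell and 3 rose in scaled TPM, and 1 fell and 7 rose in deposited TPM. The same shares of all genes apply here, and the regulators' counts lie near them, apart from the falls in scaled TPM. Esrra, a nuclear receptor that works with PGC-1 coactivators, fell on both scales. It ranged from 46.7 to 56.7 scaled TPM in the uncasted and from 19.1 to 29.7 in the casted libraries, with a change of -1.05 ± 0.09 (limma adjusted p = 2.45e-09). Nrf1 ranged from 6.07 to 8.60 and from 7.18 to 11.4, a rise of 0.41 ± 0.09 (limma adjusted p = 0.000352) with overlapping groups. Levels of a regulator's transcript do not measure its activity.

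The next comparison, casted with MOTS-c against casted, addresses whether MOTS-c altered these transcripts in casted muscle. With all libraries 0 of the 44 members passed the test (limma, adjusted p under 0.05), where 0.0204% of all genes did, that is 3 genes. At an unadjusted p under 0.05 there were 6 members, all higher, where 14.0% of all genes were past it in either direction. The median change over the members was 0.10, with 38 above 0, and it was -0.02 over all genes. Related lists moved likewise, so the shift was not particular to the members. Medians were 0.07 for complex I subunits (26 of 36 above 0) and 0.12 for skeletal muscle fibre markers (10 of 10). Slow and oxidative fibre markers had one of 0.15 (8 of 9), but assembly factors one of -0.05 (15 of 39). In deposited TPM the members' median was 0.03. The members of smallest p were Atp5k, Cox6b1 and Cox5b. Atp5k ranged from 147 to 223 (median 160.4) with MOTS-c and from 63.0 to 193 (median 126) without, at 0.57 ± 0.18 (limma adjusted p = 0.205). Cox6b1 ranged from 489 to 707 (median 581) and from 395 to 608 (median 487), at 0.27 ± 0.09 (limma adjusted p = 0.22). Cox5b ranged from 429 to 578 (median 486) and from 321 to 546 (median 440.0), at 0.24 ± 0.09 (limma adjusted p = 0.262). All 3 overlapped between the groups, as did all 44 members. Of 6 fibroblast markers all were above 0 (median 0.60), 4 of them at an unadjusted p under 0.05 and 0 past the test (limma), with sums of 363 to 737 scaled TPM with MOTS-c and 290 to 803 without. All 4 adipocyte markers tested were above 0 (median 0.53), 3 of them at an unadjusted p under 0.05. Among 8 macrophage markers 7 were above 0 (median 0.42), and 6 of the 8 had an unadjusted p under 0.05. In both lists 0 passed the test, with a smallest limma adjusted p of 0.0841. Summed adipocyte markers ranged from 249 to 328 and from 148 to 249, and summed macrophage markers from 90.3 to 180 and from 72.4 to 165. The part of these markers in the members' values was not tested. For Sdhb the difference was 0.01 ± 0.06 (limma adjusted p = 0.969), for Cyc1 0.05 ± 0.06 (limma adjusted p = 0.757).

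The casted libraries were not uniform, and the count of members called turned on which were used. The labels give no reason to split them, and the split at replicates 1 to 4 and 5 to 8 was chosen with their values known. In 17 members each of replicates 1 to 4 lay above each of replicates 5 to 8, and in 0 members the reverse held. The share of all genes with such a gap was not counted, so these counts cannot be set against it. Cycs ranged from 198 to 252 in replicates 1 to 4 and from 112 to 158 in replicates 5 to 8, and Cox7a1 from 97.3 to 135 and from 48.6 to 63.6. Mitochondrial genome transcripts took 16.1 to 17.1% and 13.9 to 15.4% of their TPM, summed fibroblast markers were 488 to 803 and 290 to 469, and summed adipocyte markers 208 to 249 and 148 to 189 scaled TPM. The part of these measures in the result was not tested. Against replicates 5 to 8 alone, 19 members were higher with MOTS-c and 0 lower, with 24 at an unadjusted p under 0.05. Of all 14690 genes 4.28% (629) were called higher and 1038 genes lower, and 4170 had an unadjusted p under 0.05. The members' low values in these replicates were known when the split was chosen. The p-values against them are therefore descriptive and no test of MOTS-c. The members' median was 0.22. The 19 were Uqcrb, Uqcr10 and Uqcr11 of complex III, Cycs, 9 of complex IV (Cox5a, Cox5b, Cox6a2, Cox6b1, Cox6c, Cox7a1, Cox7b, Cox7c and Cox8b) and 6 of complex V (Atp5e, Atp5g2, Atp5g3, Atp5j, Atp5j2 and Atp5k). The largest were Atp5k at 1.14 ± 0.11 (limma adjusted p = 1.73e-06), Cox7a1 at 0.83 ± 0.16 (limma adjusted p = 0.004) and Cycs at 0.78 ± 0.12 (limma adjusted p = 0.000833). Of complex II 0 of 4 passed, with 2 at an unadjusted p under 0.05. Against replicates 1 to 4 alone 0 of 44 members passed the test, with 1 at an unadjusted p under 0.05 and a median of -0.02, where 0.0136% of all genes were called. Atp5k was then at -0.01, Cycs at -0.02 and Cox7a1 at -0.17.

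**Figure D4:**
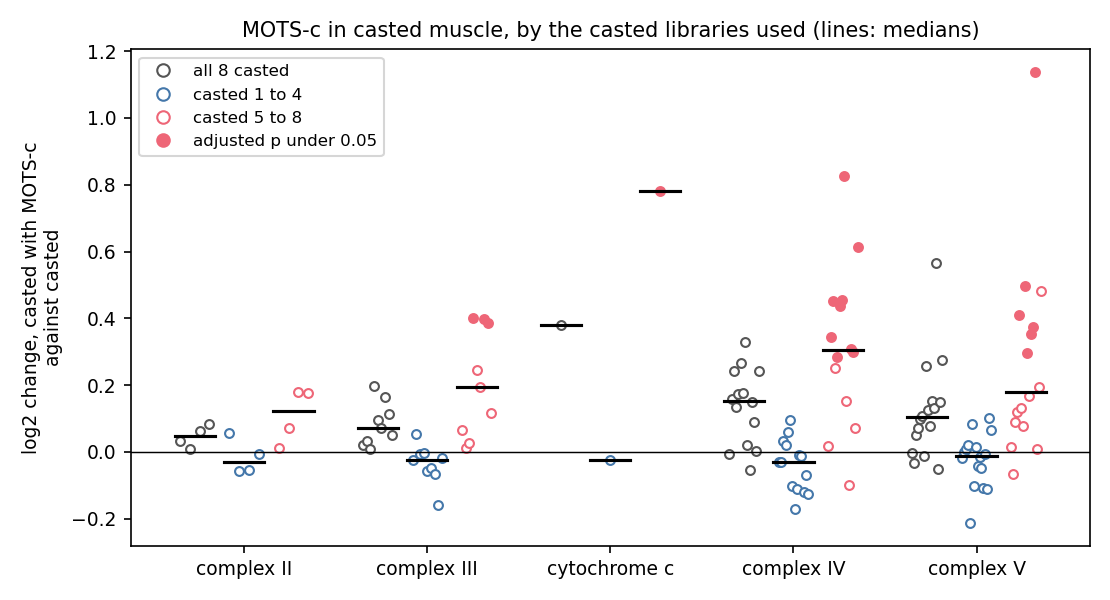
The log2 change from casted to casted with MOTS-c is plotted for each member by complex, using all 8 casted libraries (grey), replicates 1 to 4 alone (blue) or replicates 5 to 8 alone (red), with filled points for adjusted p under 0.05 and lines for medians. Filled points appear only in red, 19 in all, and the blue points run from -0.21 to 0.10.

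The ratios for subunits 7a and 8 depended on the casted libraries too. With all libraries the Cox7a1 to Cox7a2 ratio was 0.31 (log2) higher with MOTS-c (exact permutation p = 0.128, adjusted p = 0.204) and the Cox8b to Cox8a ratio 0.24 higher (exact permutation p = 0.216, adjusted p = 0.243). The Cox6a2 to Cox6a1 ratio differed by 0.03 (exact permutation p = 0.764). Against casted replicates 5 to 8 alone the first rose by 0.68 (exact permutation, adjusted p = 0.00727) and the second by 0.54 (exact permutation, adjusted p = 0.0273). Against replicates 1 to 4 alone they were at -0.06 and -0.06. As the split was chosen with values known, the p-values against part of the casted libraries are descriptive here too.

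The last comparison, casted with MOTS-c against uncasted, shares its libraries with both others, so its values stand beside theirs and are no independent evidence. Of the 44 members 39 fell and 0 rose in scaled TPM, where 24.7% of all genes fell, and all 39 at an unadjusted p under 0.05 were lower. For 33 members the groups did not overlap in scaled TPM, each being lower, as for 8.12% of all genes. In deposited TPM 15 members were separate and lower and 1 separate and higher, beside 277 and 3197 of 14690 genes. In deposited TPM 20 members fell (6.94% of all genes) and 5 rose (60.0% of all genes), namely Cox6a1, Cox6a2, Cox7a2l, Cox8a and Atp5g2. Cox6a2 fell on one scale and rose on the other. Not past the test in scaled TPM were Cox6a1 (-0.13), Cox7a2l (-0.13), Cox8a (0.07), Atp5g2 (-0.04) and Atpif1 (-0.25). The largest adjusted p of the 39 was 0.00888 (limma), for Cox6a2, and the smallest was 2.77e-11.

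By complex, the 4 members of complex II changed by -0.61 (Sdha), -0.93 (Sdhb), -0.64 (Sdhc) and -0.76 (Sdhd), beside -0.65, -0.93, -0.70 and -0.85 with casting alone. In complex III the changes ran from -1.05 for Cyc1 to -0.35 for Uqcrb. Between them lay Uqcr11 (-0.83), Uqcrc1 (-0.82), Uqcrh (-0.72), Uqcrc2 (-0.63), Uqcrfs1 (-0.59), Uqcrq (-0.52) and Uqcr10 (-0.45). Cycs was at -1.03 ± 0.15 (limma adjusted p = 3.45e-06), beside -1.40 with casting alone. In complex IV Cox7a1 was at -1.67 ± 0.19 (limma adjusted p = 1.26e-07), and Cox5a (-0.75), Cox8b (-0.64), Cox6c (-0.61), Cox4i1 (-0.53), Cox7c (-0.52), Cox5b (-0.51), Cox7a2 (-0.46), Cox7b (-0.42), Cox6b1 (-0.35) and Cox6a2 (-0.26) followed. Of complex V, 14 members fell, from -0.84 for Atp5e and -0.84 for Atp5g3 to -0.32 for Atp5h. The others were Atp5j (-0.80), Atp5k (-0.76), Atp5j2 (-0.71), Atp5g1 (-0.69), Atp5o (-0.61), Atp5a1 (-0.60), Atp5d (-0.54), Atp5b (-0.53), Atp5c1 (-0.51), Atp5l (-0.49) and Atp5f1 (-0.43). The Cox7a1 to Cox7a2 ratio was lower than in uncasted muscle by a log2 difference of -1.22 (exact permutation p = 0.0001554, adjusted p = 0.0004662), and the Cox8b to Cox8a ratio by one of -0.71 (exact permutation p = 0.0003108, adjusted p = 0.0006993). The Cox6a2 to Cox6a1 ratio differed by -0.13 (exact permutation p = 0.192, adjusted p = 0.243). Without uncasted replicate 7 it differed by -0.18 (exact permutation, adjusted p = 0.0271). This was the 1 of 16 fits without a single library that changed the call, so its p-value is descriptive.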

How the data were processed

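RNA-seq values came as 1 table a library, 24 in all. The deposited values are TPM per Ensembl gene, made by the authors. The submitters' processing notes name FastQC, STAR, RSEM, DESeq2 and GRCm38.p6, without versions, and how reads shared by near-copies were counted is not stated there. TPM hold no read counts, so no count model was used. Groups and replicate numbers came from the labels, each library being 1 mouse. Symbols came from GENCODE M21 (55141 of 55487 IDs).

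TPM were scaled between libraries by an unweighted trimmed mean of log ratios (30% and 5% trimmed), and 1 was added before log2, which understates changes of low genes. Genes reaching 0.5 TPM in 8 or more libraries were kept. All 24 libraries entered 1 limma fit of 3 group means with a mean-variance trend, two-sided, with Benjamini-Hochberg adjustment over 14690 genes and a threshold of 0.05. Isoform log2 ratios of deposited TPM were compared by exact permutation over 12870 splits, adjusted over 9 tests. The limma step was tested on simulated data.

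The 44 members and the other lists were chosen with earlier results of these data known. All members are named. Casting statistics are given for the lowest and highest member of each complex, the isoform pairs, Cycs, the subunit c genes and Atpif1. For the comparisons with MOTS-c they are given for members past the test, or else the 3 of smallest p, and in the other lists for the lowest and highest gene. Sdhb and Cyc1 under MOTS-c, and Cycs, Cox7a1 and Atp5k by casted replicates, were chosen after their values were seen. Near-copies were transcripts of other genes that matched a member's transcript at 90% identity or more (blastn 2.17.0). The match had to span at least 80% of the other gene's transcript, so copies of only part of a member were included. Promoter windows came from RefSeq (GRCm38.p6). The alternatives tried were deposited TPM, a median of ratios scaling, TPM without mitochondrial genome genes, a pseudocount of 0.1, no filter, fits of only the 2 groups compared, a replicate block, ratios of scaled TPM + 1, and fits without single libraries or without casted replicates 1 to 4 or 5 to 8. Python 3.11.15, numpy 2.4.6, pandas 2.3.3, scipy 1.17.1, Biopython 1.88, matplotlib 3.10.9, R 4.3.3 and limma 3.58.1 were used.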

Additional observations from a re-analysis of the deposited data

Results flagged for a closer look

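Among 141 sets of 8 libraries examined (44 members and 3 isoform ratios in 3 groups), 23 held a library far from the others by Dixon's test at the 95% level. Chance alone marks about 1 in 20 sets, and members measured in the same library are not independent. Uncasted replicate 8, whose scaling factor was the highest (1.36), stood above its group for 10 members. Its scaled TPM were 583 for Uqcrq, 1339 for Cox4i1, 785 for Cox5a, 823 for Cox5b, 929 for Cox6b1, 45.5 for Cox8a, 317 for Atp5d, 659 for Atp5g1, 671 for Atp5l and 898 for Atp5o. The group medians were 457, 1066, 655, 697, 725, 38.5, 272, 548, 501 and 737 in that order. Casted with MOTS-c replicate 5, with the highest scaling factor of its group (1.11), stood above it for 9 members. Its scaled TPM were 337 for Uqcrc1, 277 for Uqcr11, 626 for Cox6c, 191 for Cox7a1, 397 for Cox7c, 946 for Atp5a1, 331 for Atp5e, 395 for Atp5j2 and 223 for Atp5k. The group medians were 241, 203, 446, 95.9, 308, 740.2, 271, 306 and 160.4. The part of the scaling factor in these values was not tested.

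Casted replicate 4 was far above its group for Cox7c, at 428 against a median of 289.9 scaled TPM. Casted replicate 6 was far below it for Atp5o, at 385 against 440.0. The log2 ratio of Cox6a2 to Cox6a1 was low in uncasted replicate 7, at 4.49 against a median of 4.91, and in casted with MOTS-c replicate 3, at 4.37 against 4.79.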

How the results depend on the processing

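Deposited TPM changed most. Members past the test numbered 24 in casting (22 lower, 2 higher; median -0.13) and 25 in casting with MOTS-c (20 lower, 5 higher). The sign turned in casting for Cox6a1 (0.21), Cox6a2 (0.068), Cox7a2 (0.021), Cox7a2l (0.42), Atp5b (0.013), Atp5g2 (0.21), Atp5h (0.11) and Atp5l (0.063). In casting with MOTS-c it turned for Uqcrb (0.086), Cox6a1 (0.29), Cox6a2 (0.18), Cox6b1 (0.088), Cox7a2l (0.30), Cox7b (0.020), Atp5f1 (0.0052), Atp5g2 (0.40), Atp5h (0.12) and Atpif1 (0.17). Without casted replicates 1 to 4, 19 members passed under MOTS-c, the ratios of Cox7a1 to Cox7a2 and Cox8b to Cox8a were at 0.68 and 0.54, and Cox8a in casting at -0.0042. Without casted replicates 5 to 8, the median under MOTS-c was -0.022, Atp5k was at -0.0062 and the ratios were at -0.060 and -0.057. The cause was not tested. Leaving out 1 library at a time gave 41 to 42 members past the test in casting (median -0.67 to -0.61), 0 to 0 under MOTS-c (median 0.06 to 0.14) and 39 to 40 in casting with MOTS-c. In the order casting, MOTS-c and casting with MOTS-c, Cox6a2 to Cox6a1 ranged from -0.21 to -0.12, from -0.007 to 0.085 and from -0.18 to -0.071, turning sign under MOTS-c without casted replicate 1 (-0.0007), 2 (-0.007) or 7 (-0.0039). Cox7a1 to Cox7a2 ranged from -1.61 to -1.45, from 0.22 to 0.39 and from -1.32 to -1.16, and Cox8b to Cox8a from -1.05 to -0.88, from 0.15 to 0.33 and from -0.80 to -0.65. Cox7a2l passed in casting with MOTS-c without replicate 6 of the MOTS-c group (limma adjusted p = 0.0495). With no filter Atp5g2 lost its call in casting. The median of ratios scaling, the pseudocount of 0.1, TPM without mitochondrial genome genes, fits of 2 groups and ratios of scaled TPM + 1 changed no call among the members and isoform ratios they were run on. Calls in the other gene lists were not compared between these alternatives. Over all genes, the 3 past the test under MOTS-c became 0 with the pseudocount of 0.1, with no filter and with fits of 2 groups, and 18 with a replicate block. Replicate numbers were shared by the groups, and whether they pair the libraries is not known. Correlations between libraries of the same number were -0.245 to 0.373, with 6 of 24 pairs over 0.1. Of 24 libraries 8 were closest to a library of their own number. A replicate block left 42 members past the test in casting with a median of -0.63, 0 under MOTS-c and 39 in casting with MOTS-c. The deposited TPM give no depth.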
